A study of Mus musculus with 3 samples.

Results

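The endolysosomal protein-degrading system was followed through 10 genes across 3 dendritic cell (DC) subsets of mouse spleen: the cathepsin genes Ctsa, Ctsb, Ctsc, Ctsd, Ctsh, Ctsl, Ctss and Ctsz, the legumain gene Lgmn and the cystatin C gene Cst3. They were chosen by gene symbol in the platform's annotation, as proteases of antigen processing and their inhibitor, and are 10 of 18194 annotated genes. All 21 probe sets annotated to them were taken, of 45101 on the array. The subsets were plasmacytoid DC (pDC), CD8+ conventional DC (CD8+ cDC) and CD11b+ conventional DC (CD11b+ cDC), each labelled naïve. They were sorted by flow cytometry from spleens of healthy C57bl/6 females, adults of 6 to 8 weeks, after magnetic depletion of T and B cells, with no further treatment named. Each subset had 1 array, hybridised with cRNA amplified from 20 ng of total RNA pooled over 5 to 8 mice. Without replicate arrays the spread within a subset is unknown, so no test was made. Animals, sort, amplification and hybridization went with the subset and cannot be told apart from it.

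Cathepsins are proteases of endosomes and lysosomes, most of them cysteine proteases. In antigen-presenting cells they cut ingested proteins into peptides and trim the invariant chain that blocks the groove of MHC class II molecules. Cystatin C is a secreted inhibitor that binds cysteine cathepsins tightly and can also inhibit legumain. In mouse macrophages and DC, cathepsins and legumain also cleave Toll-like receptors of the endosome into their signalling form.

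Values are signals on the authors' scale, which is linear. A call required a 2-fold or larger difference between arrays, with the brighter one above a background level of 111, the 95th percentile of chemosensory receptor probe sets. Genes with several probe sets were taken at the brightest one. The sorts carried their defining markers: 9 of 9 measured pDC markers were higher on the pDC array than on either cDC array. All 6 measured CD8+ cDC markers were highest on the CD8+ cDC array, and 5 of 6 measured CD11b+ cDC markers on the CD11b+ cDC array, Cd209a being highest on the pDC array. Siglech had a signal of 106310 on the pDC array and lay at background on both cDC arrays. Cd8a had 203567 on the CD8+ cDC array and Itgam 2787 on the CD11b+ cDC array. Probe sets for the 3' end of Actb outshone those for the 5' end by 5.71-fold in pDC, 4.08-fold in CD8+ cDC and 2.91-fold in CD11b+ cDC. For Gapdh these ratios were 16.2 in pDC, 17.6 in CD8+ cDC and 9.68 in CD11b+ cDC. The part of RNA quality in the differences was not tested. For genes with a second measured probe set, the SD of the gap between their log2 differences was 0.89 for pDC and CD8+ cDC, 0.86 for pDC and CD11b+ cDC and 0.74 for the cDC subsets. The 2-fold threshold, 1 on the log2 scale, is thus little larger than the disagreement of 2 probe sets for 1 gene.

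All 10 genes were above background on all 3 arrays. The protease genes were lowest on the CD8+ cDC array in 9 of 9 cases, and Cst3 was highest there. The highest array was pDC for 7 genes, CD11b+ cDC for 2 (Ctss and Lgmn) and CD8+ cDC for 1 (Cst3). Of 18 protease probe sets above background on all 3 arrays, 16 were lowest in CD8+ cDC and 2, both of Ctsb, in CD11b+ cDC. The order was weak where neighbours lay close: the highest and second arrays were under 2-fold apart for 7 of the 10 genes. Since RNA was taken from pooled sorts, fewer cells of a type and less RNA per cell cannot be told apart in any of these levels.

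**Figure D1:**
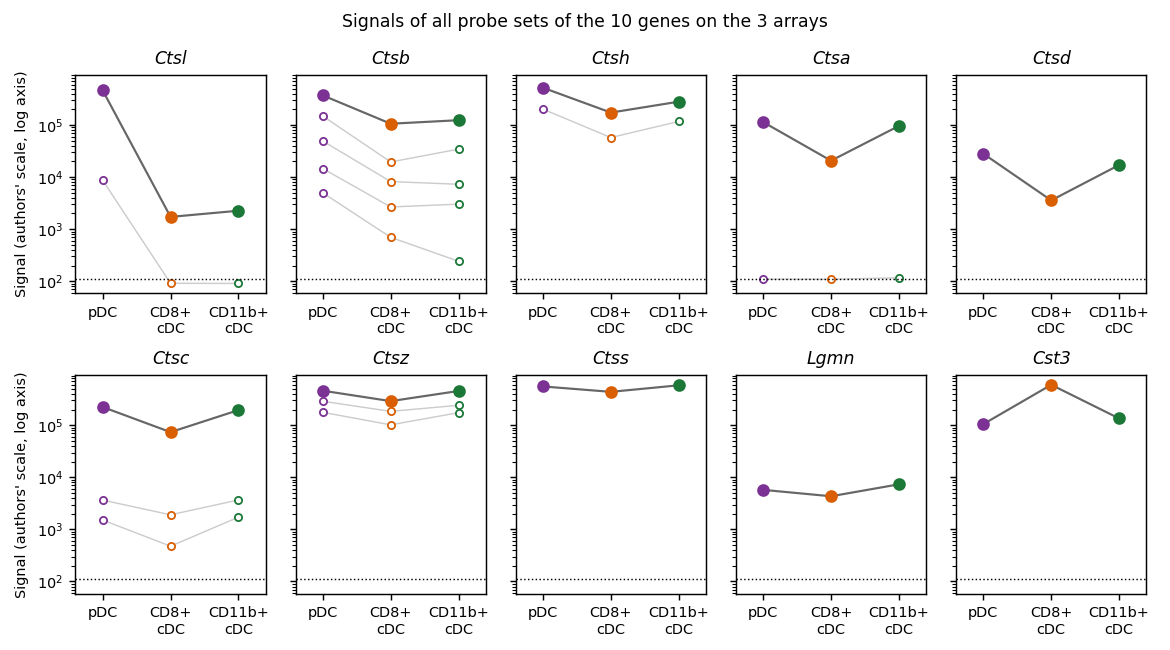
Signal (authors' scale, log axis) of every probe set of the 10 genes on the pDC, CD8+ cDC and CD11b+ cDC arrays, 1 array per subset; filled points are the probe set taken for the gene, open points its other probe sets, and the dotted line the background level of 111. Ctsl was 463795 in pDC and 1719 and 2257 in the cDC subsets, and the protease genes dip at CD8+ cDC where Cst3 peaks at 600908.

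Ctsl and Ctsb were the members called higher in pDC than in both cDC subsets, and at the probe sets taken neither was called between the cDC subsets. Their patterns over the arrays were far apart (distance 5.05 between centred log2 signals), and Ctsb was nearest to Ctsh (0.50). Cathepsin L is an endopeptidase known for trimming the invariant chain in mouse thymic epithelium. Ctsl had a signal of 463795 in pDC, 1719 in CD8+ cDC and 2257 in CD11b+ cDC at probe set 1451310_a_at. It was therefore 269.9-fold higher in pDC than in CD8+ cDC and 206-fold higher than in CD11b+ cDC, while the cDC subsets differed 1.31-fold. Only 22 of 10823 genes had a larger difference toward pDC against CD8+ cDC, and 24 of 10793 against CD11b+ cDC. The second probe set of Ctsl, 1457724_at, gave 8687 in pDC and lay at background in both cDC subsets, so it was at least 78.1-fold higher in pDC. Both probe sets thus put Ctsl on the pDC side, though the size depended on the probe set.

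Cathepsin B is an abundant lysosomal protease that cuts both inside proteins and at their carboxyl end. Ctsb had 370852 in pDC, 105911 in CD8+ cDC and 123802 in CD11b+ cDC. It was 3.50-fold higher in pDC than in CD8+ cDC and 3.0-fold higher than in CD11b+ cDC. The other 4 probe sets gave larger values toward pDC, up to 7.60-fold against CD8+ cDC and from 4.31-fold to 20.6-fold against CD11b+ cDC. The 20.6-fold value came from 1444987_at, with 4977 in pDC, 695 in CD8+ cDC and 241 in CD11b+ cDC. Between the cDC subsets the 5 probe sets of Ctsb ranged from 1.76-fold lower to 2.88-fold higher in CD8+ cDC, so no order of the cDC subsets was common to them.

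Ctsa, Ctsd and Ctsc were the members called lower in CD8+ cDC than on both other arrays, at the probe sets taken. They were under 2-fold apart in pDC and CD11b+ cDC. Cathepsin D is the main aspartic protease of lysosomes. Ctsd had 28108.5 in pDC, 3567 in CD8+ cDC and 17055 in CD11b+ cDC. It was 7.88-fold higher in pDC than in CD8+ cDC and 4.78-fold lower in CD8+ cDC than in CD11b+ cDC, and 362 of 10709 genes had a larger difference in that direction between the cDC subsets. Ctsa encodes a carboxypeptidase that also protects lysosomal neuraminidase and beta-galactosidase from breakdown. Ctsa had 113906 in pDC, 20634 in CD8+ cDC and 96184 in CD11b+ cDC, so it was 5.52-fold higher in pDC than in CD8+ cDC and 4.66-fold lower in CD8+ cDC than in CD11b+ cDC. A dimmer Ctsa probe set, 1458466_at, read 109 in pDC, 109 in CD8+ cDC and 116 in CD11b+ cDC and gave no measure of the gene. Across the 3 arrays Ctsa and Ctsd ran close together, at a distance of 0.41 between their centred log2 signals. Ctsc was nearest to Ctsh (0.57), then to Ctsa (0.68) and Ctsz (0.70), and lay 0.98 from Ctsd. Ctsa, Ctsd and Ctsc thus share calls at the 2-fold threshold and not a close pattern.

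Cathepsin C, or dipeptidyl peptidase I, removes dipeptides and activates granule serine proteases. Ctsc had 224978 in pDC, 73931 in CD8+ cDC and 195950 in CD11b+ cDC. It was 3.04-fold higher in pDC than in CD8+ cDC and 2.65-fold lower in CD8+ cDC than in CD11b+ cDC. In the same pairs probe set 1437939_s_at was just short of the threshold, at 1.92-fold and 1.93-fold, and 1446834_at gave 3.19-fold and 3.61-fold. All 3 probe sets were lowest in CD8+ cDC. Between pDC and CD11b+ cDC, Ctsa, Ctsc and Ctsd differed 1.18-fold, 1.15-fold and 1.65-fold, none of them called.

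Cathepsin H is mainly an aminopeptidase. Ctsh took a middle course, with 520372 in pDC, 173289 in CD8+ cDC and 280944 in CD11b+ cDC. It was 3.0-fold higher in pDC than in CD8+ cDC, but the steps to and from CD11b+ cDC were 1.85-fold and 1.62-fold and neither was called. The second probe set, 1443814_x_at, gave 3.51-fold for pDC over CD8+ cDC and was 2.04-fold lower in CD8+ cDC than in CD11b+ cDC, which passes the threshold by a small margin. Probe sets with the suffix x hold probes that can match other transcripts.

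Ctss, Ctsz and Lgmn were the flattest members. Cathepsin S, which completes invariant chain removal in DC and B cells, had a Ctss signal of 557959 in pDC, 439810 in CD8+ cDC and 587282 in CD11b+ cDC. Ctsz, encoding a carboxypeptidase also called cathepsin X, had 462351 in pDC, 291451 in CD8+ cDC and 457180 in CD11b+ cDC. Lgmn, encoding a protease that cuts after asparagine, had 5756 in pDC, 4336 in CD8+ cDC and 7356 in CD11b+ cDC. The highest and lowest arrays differed 1.34-fold for Ctss, 1.59-fold for Ctsz and 1.70-fold for Lgmn, and 0 of these 3 genes was called in any pair on the deposited scale. A difference under the threshold on single arrays does not show that the levels were equal. The pattern of Ctss was closest to that of Ctsz among all 45 pairs of the 10 genes (distance 0.24). Signals of Ctss, Ctsz, Ctsb, Ctsc, Ctsh and Cst3 were above 65535, the most a scanner pixel can hold before any scaling, on all 3 arrays. So were those of Ctsl in pDC and of Ctsa in pDC and CD11b+ cDC. Whether their probes were near saturation was not tested.

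Cst3 ran against the proteases. Its single probe set gave 105412 in pDC, 600908 in CD8+ cDC and 135596 in CD11b+ cDC. Cst3 was 5.70-fold lower in pDC than in CD8+ cDC, and CD8+ cDC exceeded CD11b+ cDC 4.43-fold. Between pDC and CD11b+ cDC it differed 1.29-fold and was not called. Of 10709 genes, 357 had a larger difference toward CD8+ cDC between the cDC subsets. Cst3, Ctsd, Ctss and Lgmn have 1 probe set each, so no second probe set checks them.

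RefSeq entries of 300 bases on the build GRCm38.p6, from 250 bases before a transcript start to 50 after it, were matched by symbol for 8 of the 10 genes, with 10 entries in all. Shown, for how their levels differed, are the gene furthest above the cDC arrays in pDC (Ctsl), the pair furthest below its other arrays in CD8+ cDC (Ctsa and Ctsd), a flat gene (Ctss) and the inhibitor (Cst3), each written from 5′ to 3′ on the gene's strand. Capitals mark CACGTG, the core of the CLEAR element bound by TFEB and also a canonical E-box, in Ctsl, Ctsa and Ctsd. In Ctss they mark an interferon response element (GAAA, any 2 bases, GAAA) and GAGGAAGT, a PU.1-type ETS site that lies on the opposite strand, and in Cst3 the GC box GGGCGG.
Ctsl, chr13:64370471-64370770, minus strand: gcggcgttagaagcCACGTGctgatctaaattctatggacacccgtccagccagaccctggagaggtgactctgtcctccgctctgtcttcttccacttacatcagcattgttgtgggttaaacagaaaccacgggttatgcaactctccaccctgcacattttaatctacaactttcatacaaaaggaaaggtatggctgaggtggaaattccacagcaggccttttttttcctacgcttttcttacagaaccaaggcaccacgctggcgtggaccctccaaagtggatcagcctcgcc
Ctsa, chr2:164833523-164833822, plus strand: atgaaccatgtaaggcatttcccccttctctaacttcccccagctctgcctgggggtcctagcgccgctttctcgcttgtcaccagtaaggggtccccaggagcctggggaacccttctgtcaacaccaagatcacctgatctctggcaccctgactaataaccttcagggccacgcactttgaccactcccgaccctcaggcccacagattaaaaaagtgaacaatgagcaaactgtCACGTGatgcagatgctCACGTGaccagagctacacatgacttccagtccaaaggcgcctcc
Ctsd, chr7:142387778-142388077, minus strand: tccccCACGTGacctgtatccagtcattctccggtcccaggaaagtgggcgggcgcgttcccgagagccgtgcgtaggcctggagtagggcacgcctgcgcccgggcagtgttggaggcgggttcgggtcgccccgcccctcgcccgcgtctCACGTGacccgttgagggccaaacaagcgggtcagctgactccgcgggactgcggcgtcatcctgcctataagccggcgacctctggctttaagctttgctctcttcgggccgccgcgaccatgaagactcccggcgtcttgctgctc
Ctss, chr3:95526536-95526835, plus strand: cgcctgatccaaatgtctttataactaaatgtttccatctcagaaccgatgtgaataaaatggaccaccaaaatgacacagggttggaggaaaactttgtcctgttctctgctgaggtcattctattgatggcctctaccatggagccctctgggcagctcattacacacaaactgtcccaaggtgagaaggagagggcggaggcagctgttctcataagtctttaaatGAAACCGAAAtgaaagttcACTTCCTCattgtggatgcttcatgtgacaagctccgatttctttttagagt
Cst3, chr2:148875463-148875762, minus strand: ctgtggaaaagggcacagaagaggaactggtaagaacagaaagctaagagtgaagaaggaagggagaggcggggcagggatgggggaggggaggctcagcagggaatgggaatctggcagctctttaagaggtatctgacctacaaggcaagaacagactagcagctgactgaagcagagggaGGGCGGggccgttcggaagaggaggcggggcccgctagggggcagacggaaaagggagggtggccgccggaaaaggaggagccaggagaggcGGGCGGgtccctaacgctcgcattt

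Motifs were searched as exact letters on both strands, and motifs may overlap one another. CACGTG was in the listed promoters of 4 of 8 genes (Ctsa, Ctsd, Ctsl and Lgmn), against 8.09% of the 27025 genes with a promoter entry and 7.15% of all 32851 promoters. For Ctsa 1 of 2 listed promoters, the one shown, held it, 12 bases before and 5 bases after the start, and the Ctsd promoter held it 245 and 98 bases before the start. In Ctsl it lay 236 bases before the start, and in Lgmn it was in 1 of 2 listed promoters, 49 bases before the start. The interferon response element was in 1 promoter, that of Ctss, 21 bases before the start, against 3.99% of all genes. GAGGAAGT was in those of Ctss and Ctsc, against 3.69%, and GGGCGG in those of 6 of 8 genes, against 38.2%. CCAAT was in the promoters of Ctsz and Lgmn (41.1% of all genes), and CAGGTG, an E-box of the kind bound by E proteins, in that of Ctsa (22.6%). The genes with CACGTG thus include 1 far higher in pDC (Ctsl), 2 low in CD8+ cDC and 1 flat gene. These matches describe letters in a window and not binding.

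The comparison of pDC with CD8+ cDC asks how the plasmacytoid subset differs from the conventional subset known for presenting antigen of dying cells on MHC class I. Of the 10 genes, 6 were higher in pDC, where 16.0% of all 10823 measured genes were. These were Ctsl, Ctsd, Ctsa, Ctsb, Ctsc and Ctsh. The inhibitor Cst3 was the 1 gene higher in CD8+ cDC, a call made for 14.8% of all genes. The median log2 difference of the 10 genes was 1.60, and that of all measured genes 0.00. When the spike-ins added at hybridization set the scale, Ctsz and Lgmn were also called and 8 of the 10 genes were higher in pDC. On that scale 3383 of 10067 measured genes were higher in pDC. That scaling moved the median of all genes to 0.65 and the pDC share of all calls to 77.6%, against 51.9% with the deposited values.

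The comparison of pDC with CD11b+ cDC asks how the plasmacytoid subset differs from the other conventional subset. Only Ctsl and Ctsb were higher in pDC among the 10 genes, against 15.0% of 10793 measured genes. None of the 10 was higher in CD11b+ cDC, a call made for 14.3% of all genes. The count of members called in this pair was near the background share. Their median log2 difference was 0.22, with 0.01 over all genes, and it turned to -0.13 with spike-in scaling, when the median of all genes was -0.30. Ctsa, Ctsc and Ctsz, whose pDC and CD11b+ cDC signals lay within 1.18-fold, were then highest in CD11b+ cDC, so pDC was the highest array for 4 genes and CD11b+ cDC for 5. The pDC share of all calls was 34.7% with spike-in scaling and 51.2% with the deposited values.

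The comparison of CD8+ with CD11b+ cDC asks how the conventional subsets differ from each other. The 3 proteases lower in CD8+ cDC were Ctsd (4.78-fold), Ctsa (4.66-fold) and Ctsc (2.65-fold). A call in that direction was made for 10.3% of 10709 measured genes. Cst3 was the 1 member higher in CD8+ cDC, against 9.84% of all genes. The other 6 proteases were 1.17-fold (Ctsb) to 1.70-fold (Lgmn) lower in CD8+ cDC and not called. The median log2 difference of the 10 genes was -0.67, against 0.01 over all genes. With spike-in scaling 9 of 9 proteases were lower in CD8+ cDC by 2-fold or more and Cst3 stayed higher by 1.15 on the log2 scale. Of 10512 measured genes, 4773 were then lower in CD8+ cDC and 405 higher. In that scaling the median of all genes was -0.95, and CD8+ cDC held 7.82% of all calls, against 49.0% with the deposited values.

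Markers of other cells moved with the comparison of the cDC subsets. Of 14 macrophage markers, 0 were higher in CD8+ cDC and 5 in CD11b+ cDC, with summed signals of 110998 and 200561. Of 8 monocyte and neutrophil markers, 0 were higher in CD8+ cDC and 6 in CD11b+ cDC, with sums of 13430 and 82048. Of all measured genes, 9.84% were higher in CD8+ cDC and 10.3% in CD11b+ cDC. Single genes weighed heavily in these sums. Csf1r alone had 11778 in CD8+ cDC and 64906 in CD11b+ cDC, and the macrophage marker Adgre1 had 3196 and 70516. On the pDC array the macrophage sum was 59049 and the monocyte and neutrophil sum 10586. Marco, a marker of marginal zone macrophages, was at background in pDC, at 111.4 in CD8+ cDC and at 128 in CD11b+ cDC, against a background of 111. Of 5 measured T and NK cell markers, Cd3d, Cd3e, Cd3g and Ncr1 were at background on all 3 arrays, and Gzma was 2.07-fold lower in CD8+ than in CD11b+ cDC. Of 7 measured B and plasma cell markers, Cd79a and Pax5 were at background on all 3 arrays and 5 were not. Among these 5, 4 were higher and 1 lower in pDC than in CD8+ cDC, where 16.0% and 14.8% of all measured genes were. Jchain (14.7-fold), Cd79b (10.6-fold) and Ighm (2.81-fold) were lower in CD8+ than in CD11b+ cDC. The summed B and plasma cell signal was 193286 in pDC, 71628 in CD8+ cDC and 172038 in CD11b+ cDC, with the same lowest array as the proteases. Most of that sum was Ighm, with 171513 in pDC, 50809 in CD8+ cDC and 142572 in CD11b+ cDC. Ms4a1, the 1 marker lower in pDC, went the other way, with 223 in pDC, 19147 in CD8+ cDC and 11046.5 in CD11b+ cDC. Other myeloid cells and B cells can carry cathepsins as well, and the part of these markers' cells in the lower Ctsd, Ctsa and Ctsc of CD8+ cDC was not tested.

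**Figure D2:**
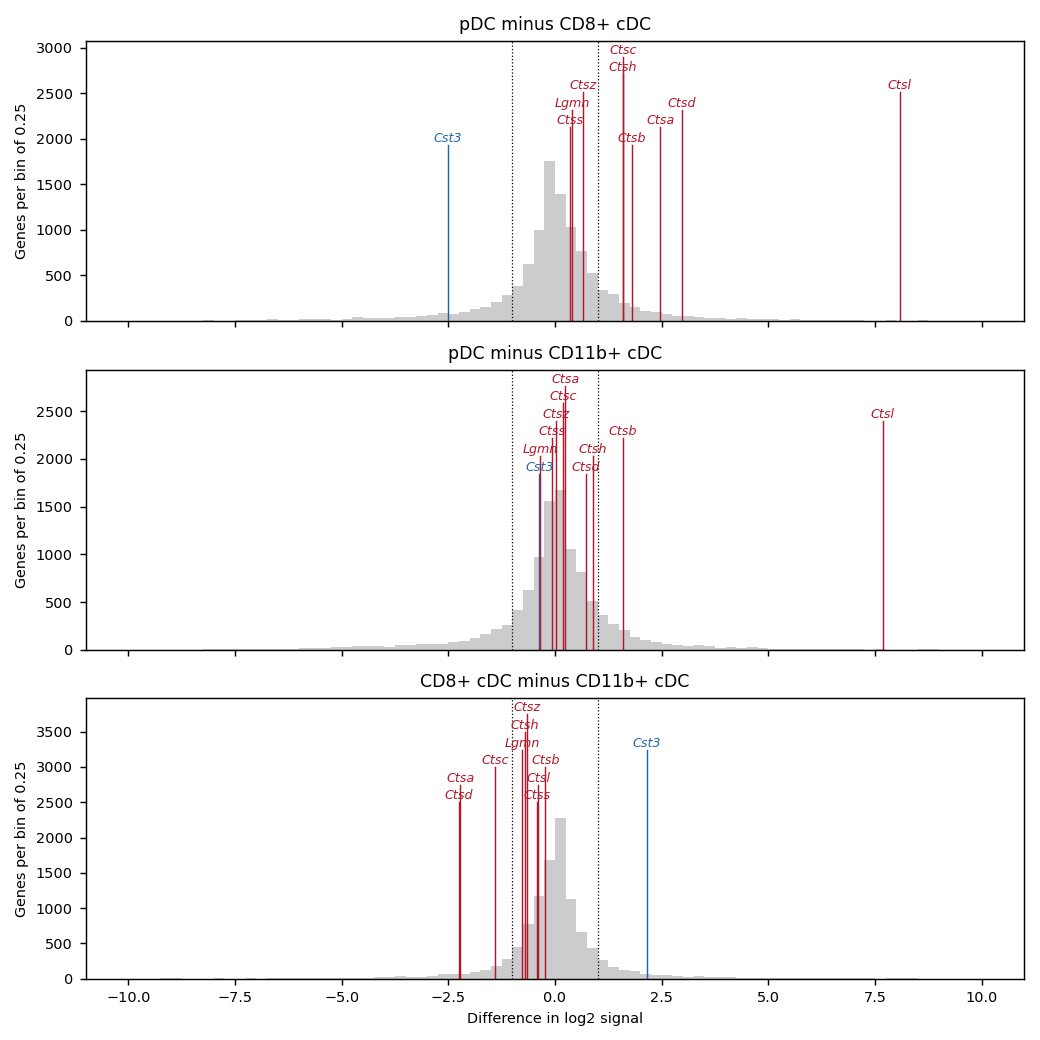
Distribution of log2 signal differences over all measured genes (grey, number of genes per bin of 0.25) for pDC minus CD8+ cDC, pDC minus CD11b+ cDC and CD8+ minus CD11b+ cDC, with the 9 proteases marked by red lines and Cst3 by a blue line; line heights serve only to separate the names and dotted lines mark 2-fold. Ctsl lies far right in both pDC comparisons, and Cst3 stands on the other side from the proteases in the top and bottom panels.

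Because scaling multiplies all genes of an array alike, the ratio of 1 gene to another within an array changes between arrays by the same amount whatever the scaling. Each protease was therefore set against Cst3. A ratio of signals is no ratio of transcripts, and only its change between arrays is given. The ratio to Cst3 was higher in pDC than in CD8+ cDC for 9 of 9 proteases, by 7.23-fold for Ctss, 7.57-fold for Lgmn, 9.04-fold for Ctsz, 44.9-fold for Ctsd and 1538-fold for Ctsl, with the others in between. It was lower in CD8+ cDC than in CD11b+ cDC for 9 of 9, from 5.18-fold for Ctsb to 20.7-fold for Ctsa and 21.2-fold for Ctsd. Between pDC and CD11b+ cDC it was higher in pDC by 1.01-fold for Lgmn, 1.22-fold for Ctss, 3.85-fold for Ctsb and 264-fold for Ctsl. All 9 ratios share the single Cst3 probe set, so the counts are not 9 separate pieces of evidence. Through Cst3 alone, a gene with equal signals would show a ratio 5.70-fold higher in pDC than in CD8+ cDC. Between the cDC subsets its ratio would be 4.43-fold lower in CD8+ cDC. The counts of 9 in these pairs thus largely restate the change of Cst3. Set against Ctss instead, Lgmn and Ctsz moved little (1.05-fold and 1.25-fold higher in pDC than in CD8+ cDC), while Ctsa (4.35-fold) and Ctsd (6.21-fold) did not follow Ctss.

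**Figure D3:**
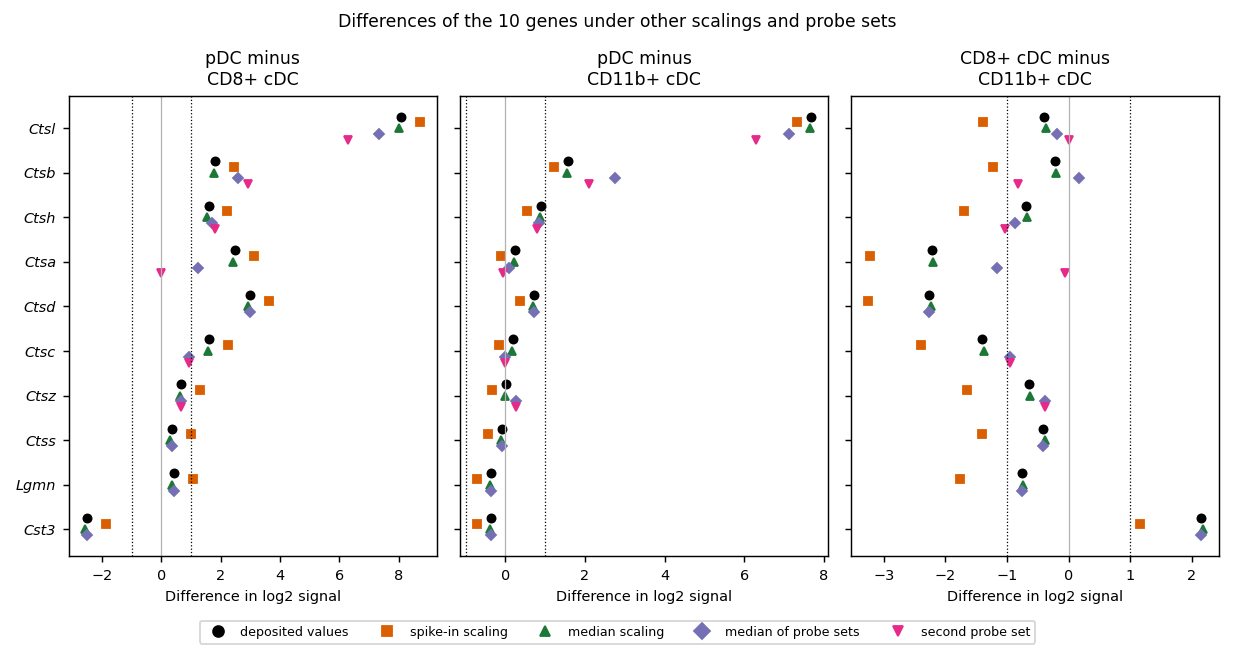
Log2 signal differences of the 10 genes (rows) for pDC minus CD8+ cDC, pDC minus CD11b+ cDC and CD8+ minus CD11b+ cDC with the deposited values, with spike-in and median scaling, and with the median or the second brightest of a gene's probe sets; dotted lines mark 2-fold. Spike-in scaling shifts all genes of a panel alike, and between the cDC subsets it takes all 9 proteases past 2-fold toward CD11b+ cDC while Cst3 stays at 1.15.

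Genes with the pattern most like a member were sought for Ctsl and Cst3, the members at 4-fold or more over both other arrays, among 4965 and 4966 other genes that had 2 or more probe sets above background. Nearest to Ctsl were Rilpl1 (distance 0.17), Jakmip1 (0.30) and Atp1b1, a sodium pump subunit gene (0.37). Atp1b1 had 336847 in pDC, 1168 in CD8+ cDC and 1164 in CD11b+ cDC, while Rilpl1 lay at background in CD8+ cDC and Jakmip1 in both cDC subsets, so that their distances rest on the background level. All 3 were read from probe sets with the suffix x. Nearest to Cst3 were Inpp1 (0.03), which encodes an inositol phosphatase, Ager (0.04), the gene of the receptor RAGE, and Dgkh (0.11), a diacylglycerol kinase gene. Inpp1 had 861 in pDC, 4835 in CD8+ cDC and 1074 in CD11b+ cDC. Likeness was measured over 3 arrays only, where close matches are easy to find among so many genes.

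The list of other endolysosomal peptidases also held the ceramidase gene Asah1, the thiol reductase gene Ifi30 and the gene of a cytosolic peptidase, Pgpep1. Its counts and medians include these genes. Of its 15 genes 13 were measured, with Ctsf and Ctsk at background on all 3 arrays. Against CD8+ cDC, 4 were higher in pDC and 2 lower (median log2 difference 0.32), where 16.0% and 14.8% of all measured genes were. Ctso, a cathepsin of little known function, was 5.46-fold and the tripeptidyl peptidase gene Tpp1 3.85-fold higher in pDC, and both were lower in CD8+ cDC than in CD11b+ cDC, by 2.71-fold and 2.43-fold, as Ctsa, Ctsd and Ctsc were. Ctsw, known from cytotoxic lymphocytes, had 631 in pDC, 126 in CD8+ cDC and 130 in CD11b+ cDC, and the carboxypeptidase gene Scpep1 was higher in pDC by 2.38-fold against CD8+ cDC and 2.72-fold against CD11b+ cDC. Not all peptidases were low in CD8+ cDC. Cpq, encoding a secreted carboxypeptidase, had 3961 in pDC, 24822 in CD8+ cDC and 899 in CD11b+ cDC and was thus 27.6-fold higher in CD8+ cDC compared with CD11b+ cDC, and the dipeptidyl peptidase gene Dpp7 was 4.80-fold higher there. Against CD8+ cDC, Cpq was 6.27-fold and Dpp7 2.39-fold lower in pDC. Against CD11b+ cDC, 6 of the 13 were higher in pDC, where 15.0% of all measured genes were. Among them were Cpq (4.41-fold) and Pgpep1 (3.91-fold, but 1.93-fold at another probe set). Ctso and Dpp7, at 2.01-fold each, passed by a small margin and were not called with spike-in scaling, which left 4. On that scale 1132 of 10686 measured genes were higher in pDC. Lower in pDC were 2, where 14.3% of all measured genes were. These were the aspartic protease gene Napsa (2.58-fold) and Ifi30 (2.12-fold), which encodes the thiol reductase GILT. Ctse was under 2-fold in all pairs at the probe set taken, but its other probe set disagreed. That probe set gave ratios of 0.07 for pDC to CD11b+ cDC, 0.16 for CD8+ to CD11b+ cDC and 0.45 for pDC to CD8+ cDC. Between the cDC subsets 3 of the 13 were higher in CD8+ cDC, with Pgpep1 at 2.12-fold (1.03-fold at another probe set). Lower there were 3, with Napsa at 2.53-fold (median -0.05). Of all measured genes, 9.84% were higher and 10.3% lower in CD8+ cDC. With spike-in scaling 2 were higher and 6 lower, when 4773 of 10512 measured genes were lower.

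Of the other inhibitors, 5 of 9 matched genes were above background. Cstb, encoding the intracellular inhibitor cystatin B, had 38427 in pDC, 53138.5 in CD8+ cDC and 34703 in CD11b+ cDC, under 2-fold in all pairs. Cst7, encoding the lysosomal inhibitor cystatin F, had 359 in pDC, background in CD8+ cDC and 1398 in CD11b+ cDC. It was at least 12.6-fold lower in CD8+ than in CD11b+ cDC. Serpinb1a, an inhibitor of serine proteases, was 13.2-fold lower in pDC than in CD8+ cDC and 6.83-fold lower than in CD11b+ cDC. At its other probe set the gap was smaller, with a ratio of 0.27 for pDC to CD8+ cDC and 0.46 for pDC to CD11b+ cDC. The medians of this list were -0.24, -0.55 and 0.21 for pDC minus CD8+ cDC, pDC minus CD11b+ cDC and CD8+ minus CD11b+ cDC. With spike-in scaling the first turned to 0.46 and the third to -0.38.

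Genes that sort proteases to lysosomes or form the lysosomal membrane divided. Against CD8+ cDC, 4 of 14 were higher in pDC and 2 lower (median 0.26), where 16.0% and 14.8% of all measured genes were. The count of 2 lower is near its share. Sort1, encoding the sorting receptor sortilin, had 17077 in pDC, 2837 in CD8+ cDC and 8478 in CD11b+ cDC, and Sorl1 had 50452, 11489 and 34583. At these probe sets both were about 3-fold lower in CD8+ than in CD11b+ cDC (2.99 and 3.01). Across 3 probe sets each, the ratio of CD8+ to CD11b+ cDC ran from 0.33 to 0.85 for Sort1 and from 0.24 to 0.33 for Sorl1. Not every Sort1 probe set thus passes the threshold. Gnptab, whose product starts the mannose 6-phosphate tag, was 3.64-fold higher in pDC than in CD8+ cDC and 2.72-fold higher than in CD11b+ cDC. Lamp2, a lysosomal membrane protein gene, was 3.29-fold higher in pDC than in CD8+ cDC and 2.42-fold higher than in CD11b+ cDC. Of the adaptor genes, Gga1 was 2.05-fold lower in pDC than in CD8+ cDC, but its other probe set gave a ratio of 0.64, under the threshold. Gga2 was lower than in CD11b+ cDC by 2.08-fold in pDC and 3.33-fold in CD8+ cDC. Of the mannose 6-phosphate receptors, M6pr differed under 2-fold in all pairs, and Igf2r had 1751 in CD8+ cDC and lay at background on the other arrays. Psap, encoding the precursor of the saposins, was higher than in CD11b+ cDC by 2.47-fold in pDC and 2.92-fold in CD8+ cDC. Between the cDC subsets 2 of 14 were higher and 3 lower in CD8+ cDC, where 9.84% and 10.3% of all measured genes were. With spike-in scaling 1 was higher and 9 lower, when 4773 of 10512 measured genes were lower.

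Transcription factors known to govern lysosomal or class II genes were above background for 5 of 5. Tfeb, the master regulator of lysosomal genes, had 2904 in pDC, 2240 in CD8+ cDC and 6163 in CD11b+ cDC, and was 2.12-fold lower in pDC and 2.75-fold lower in CD8+ cDC than in CD11b+ cDC. Its relative Mitf was 3.09-fold higher in pDC than in CD8+ cDC, and Tfe3 was 2.02-fold lower in pDC than in CD11b+ cDC. Ciita, the class II transactivator, was 4.99-fold lower in pDC than in CD8+ cDC and 4.66-fold lower than in CD11b+ cDC. Tfeb was thus highest in CD11b+ cDC, as Ctss and Lgmn were. Of the 10 genes, 7 were highest in pDC and Cst3 in CD8+ cDC. Whether Tfeb acts on any of them in these cells was not tested. The lowest array of Tfeb was CD8+ cDC, but pDC lay only 1.30-fold above it, which was not called on the deposited scale. With spike-in scaling Tfeb and Mitf were called higher in pDC than in CD8+ cDC and Ciita lower. Of 10067 measured genes, 3383 were then higher and 976 lower. Against CD11b+ cDC 4 of 5 regulators were then lower in pDC, as were 2127 of 10686 measured genes. In CD8+ cDC 4 of 5 were lower than in CD11b+ cDC, as were 4773 of 10512.

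**Figure D4:**
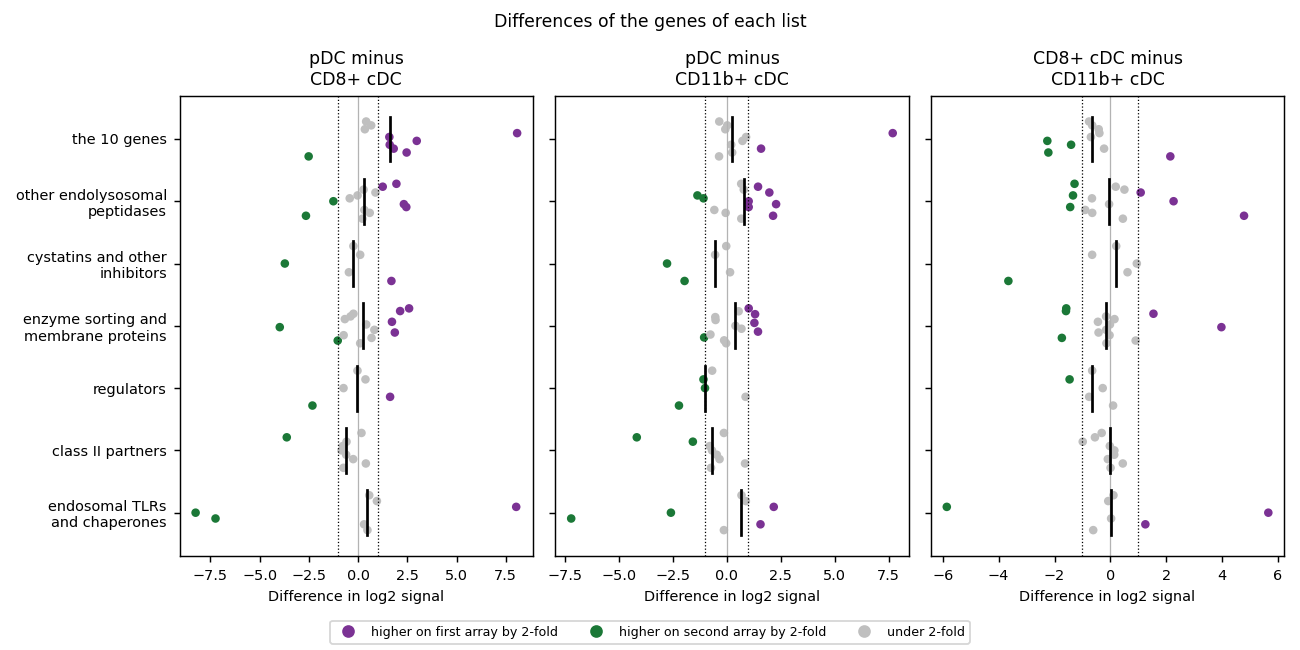
Log2 signal differences of the genes of each list (points, genes above background on either array) for pDC minus CD8+ cDC, pDC minus CD11b+ cDC and CD8+ minus CD11b+ cDC; black bars are list medians, dotted lines mark 2-fold, and colours give the call. The 10 genes have a median of 1.60 in pDC minus CD8+ cDC, with Cst3 alone below 0, and each list shown holds genes on both sides of 0 there.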

How the data were processed

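Total RNA of 3 sorted subsets was measured on 1 array each. Per the submitters' processing notes, MAS5 made the values; no further step is named in these sources. The deposited values are intensity readings on a linear scale. The 21 probe sets were named by the platform annotation, and all 10 genes were found by gene number in the GRCm38.p6 gene table. The brightest probe set by mean log2 signal stood for a gene. Values below the background level of 111 (87 chemosensory receptor probe sets) were set to it. No test was run, since there is 1 array per group and the number of arrays limits the precision. Up to 4 genes per list, pair and direction were named by size. Members, lists and rules were chosen with earlier results of these data known; 123 of 138 list entries were matched. Alternatives were other scalings, probe sets, background levels and folds. Python 3.11.15, pandas 2.3.3, numpy 2.4.6 and matplotlib 3.10.9 were used.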

Additional observations from a re-analysis of the deposited data

How the results depend on the processing

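Single arrays without replicates, 4 genes with 1 probe set each and an unstated scaling limit these results; depth over background was no limit for the 10 genes. Of 198 log2 differences recomputed under 7 alternatives, 180 moved by less than the SD between probe sets and 18 by more. Of the called differences 0 turned round, although the second Ctsa probe set, near background, gave 0.00 for pDC minus CD8+ cDC. A background at the 99th percentile, no floor and leaving out s or x suffixes could not change the 30 values of each. Every probe set taken lay above the higher background of 412, and none had such a suffix. Both rescalings moved all members of a pair alike. The count of 180 is therefore no measure of robustness. With spike-in scaling, members higher in CD11b+ than in CD8+ cDC numbered 9, members highest in pDC 4 and in CD11b+ cDC 5. Over all genes that scaling gave 3383 higher in pDC and 976 in CD8+ cDC, and between the cDC subsets 405 higher in CD8+ and 4773 in CD11b+ cDC; each array is shifted as a whole by its construction. With the median of all probe sets 1 member, Ctsb, was lowest in CD11b+ cDC, and both Ctsc calls were lost (0.94 for pDC minus CD8+ cDC, -0.95 between the cDC subsets), leaving 5 members higher in pDC than in CD8+ cDC and 2 lower in CD8+ than in CD11b+ cDC. With second probe sets, 6 members could be used and fewer genes: between pDC and CD8+ cDC the members split 3 to 0, and between CD8+ and CD11b+ cDC 0 to 1; 4 were highest in pDC, 0 highest in CD8+ cDC, 0 lowest in pDC and 4 lowest in CD8+ cDC. All-gene counts then were 703 in pDC and 660 in CD8+ cDC. They were 670 for pDC and 620 for CD11b+ cDC, and 470 in CD8+ and 450 in CD11b+ cDC. At 1.5-fold, 4 members were higher in pDC than in CD11b+ cDC and 6 lower in CD8+ than in CD11b+ cDC; all-gene counts were 2741 higher in pDC than in CD8+ cDC, 2635 for pDC and 2321 for CD11b+ cDC, and 1885 in CD8+ and 2012 in CD11b+ cDC. At 4-fold, 3 members were higher in pDC than in CD8+ cDC and 1 than in CD11b+ cDC; all-gene counts were 743 in pDC and 819 in CD8+ cDC, 647 for pDC and 778 for CD11b+ cDC, and 403 in CD8+ and 423 in CD11b+ cDC. Median scaling, a background at the 99th percentile, no floor, and leaving out probe sets with an s or x suffix (chosen after seeing the data) moved none of these counts by over 1.5 times. No paired analysis was possible because each subset has 1 array.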

Other observations

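Partners of these proteases in class II presentation were measured for 9 genes. Cd74, the invariant chain that cathepsins degrade, had 253111 in pDC, 424116 in CD8+ cDC and 421986 in CD11b+ cDC, under 2-fold in all pairs. H2-Ob, a chain of the inhibitor of the peptide exchanger DM, had 9414 in pDC, 115930 in CD8+ cDC and 170037 in CD11b+ cDC, so it was 12.3-fold and 18.1-fold lower in pDC, and H2-Oa was 2.98-fold lower in pDC than in CD11b+ cDC. Between the cDC subsets 0 of 9 were called, where 9.84% of all measured genes were higher and 10.3% lower in CD8+ cDC. With spike-in scaling 5 were lower in CD8+ cDC, as were 4773 of 10512 measured genes. Neu1 and Glb1, whose products cathepsin A protects, differed under 2-fold in all pairs on the deposited scale. With spike-in scaling Glb1 was called higher in pDC than in CD8+ cDC and Neu1 lower in CD8+ than in CD11b+ cDC.

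Of 7 genes of endosomal Toll-like receptors and their chaperones, 1 was higher and 2 lower in pDC than in CD8+ cDC. The shares of all measured genes were 16.0% and 14.8%. Tlr7 had 36594 in pDC, 140 in CD8+ cDC and 8127 in CD11b+ cDC. Tlr3 had 435 in pDC, 132701 in CD8+ cDC and 2629 in CD11b+ cDC, and Tlr13 had 131 in pDC, 19796 in CD8+ cDC and 19426 in CD11b+ cDC. Tlr9, a receptor known to be cut by cathepsins and legumain in mouse cells, had 393 in pDC, 203 in CD8+ cDC and 214 in CD11b+ cDC. It was not called on the deposited scale. Its 1 probe set lay under the higher background of 412 on all 3 arrays, so its level is poorly measured here. The chaperone gene Hsp90b1 was higher than in CD11b+ cDC by 2.94-fold in pDC and by 2.38-fold in CD8+ cDC. With spike-in scaling 4 genes of this list (Tlr7, Tlr9, Unc93b1 and Cnpy3) were higher in pDC than in CD8+ cDC, as were 3383 of 10067 measured genes. The call for Hsp90b1 between the cDC subsets was then lost.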
